A study of Mus musculus with 9 samples.

Results

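miR-146a and miR-146b are a pair of microRNAs (miRNAs), short RNAs that repress messenger RNAs matching their seed, and were followed here in the olfactory bulb of mice that breathed formaldehyde (FA). Their probes were found by name, taking every arm of each hairpin, which gave 4 miRNAs (2 of miR-146a, 2 of miR-146b) among 1027 mouse miRNAs on the array, of which 462 were tested. The pair was chosen by the normalized intensities of these same arrays, which were already known to differ between groups, so the group differences of miR-146 are given as a description, with a standard error (SE) and no test.

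The study measured bulb RNA from male ICR mice, an outbred stock, aged 8 weeks, on 9 single-colour Exiqon arrays, 3 per group. Control mice (0 days, replicates 1, 2 and 3) were housed alike without the gas, FA 1 day mice (replicates 1, 2 and 4) received it in a chamber at 3 ppm for 6 hours on 1 day, and FA 7 days mice (replicates 1, 2 and 3) received the same daily dose on 7 successive days. The labels name no genetic change. The labels do not say whether each array holds 1 animal or when the control mice were dissected, so the spread between arrays may be technical in part.

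miR-146a is known as a brake on innate immune signalling. Toll-like and interleukin-1 receptors activate the transcription factor NF-κB, which induces the miR-146a gene, and the mature miRNA then represses the kinase Irak1 and the adaptor Traf6, through which those receptors signal. miR-146b comes from a different gene but carries the same seed, so both are predicted to bind many of the same messages. In the brain, microglia and astrocytes are known to raise miR-146a under inflammatory stimulation.

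The mature sequences are shown because the identical seed and the few differing bases bear on how far 2 probes can report on 2 miRNAs. They are RefSeq records on build GRCm38.p6, written 5′ to 3′, with the seed (bases 2 to 8) in capitals.
mmu-miR-146a-5p: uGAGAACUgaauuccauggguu
mmu-miR-146b-5p: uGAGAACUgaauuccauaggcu
mmu-miR-146a-3p: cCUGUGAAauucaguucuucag
mmu-miR-146b-3p: gCCCUAGGgacucaguucuggu
The 5p arms were identical at 20 of 22 bases. Read from miR-146a to miR-146b and counted from 1 at the 5′ end, they differed by G18A and U21C, both outside the seed. Of 1679 mature mouse miRNA names in the RefSeq table, the seed GAGAACU occurred in 2, the 2 miR-146 5p arms. The 3p arms had different seeds, each found in 1 name. Probe sequences were not used here, so how far each 5p probe also binds the other 5p arm was not tested.

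The hairpins place each arm in its gene, with the mature arms in capitals.
Mir146: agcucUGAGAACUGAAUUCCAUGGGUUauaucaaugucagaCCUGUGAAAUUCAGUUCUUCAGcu
Mir146b: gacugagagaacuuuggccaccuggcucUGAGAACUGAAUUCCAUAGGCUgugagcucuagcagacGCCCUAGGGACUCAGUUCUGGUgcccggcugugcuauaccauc
Mir146, the gene of miR-146a, lies at chr11:43374397-43374461 on the minus strand and overlaps no other RefSeq gene, with miR-146a-5p at chr11:43374435-43374456. Mir146b lies at chr19:46342762-46342870 on the plus strand, within the long non-coding RNA gene Gm36493, with miR-146b-5p at chr19:46342790-46342811. All coordinates are of GRCm38.p6.

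Only the 5p arms were measured above background. A probe was called detected on an array when the mean over its 4 spots of foreground minus background intensity reached 30. miR-146a-5p and miR-146b-5p were detected on 9 of 9 arrays, with single spots from 73 to 801 and from 235 to 1194. miR-146a-3p and miR-146b-3p were detected on 0 of 9 arrays, with no spot above 6 and 20, so they give no level, and 2 of the 4 miR-146 miRNAs entered the tests.

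Across the arrays, between 398 and 520 mouse probes were detected and median background ran from 35 to 49. A pair of arrays stood apart over the tested probes. Measured as a root mean square log2 distance to the average of the remaining arrays, FA 7 days replicate 3 lay at 0.64 and control replicate 2 at 0.88, while the other 7 lay at 0.30 to 0.46. The median signal was weakest on FA 7 days replicate 3, at 224, beside 287.5 to 441 elsewhere. All 6 bulb markers, among them the neuronal miR-124-3p, were detected on 9 of 9 arrays.

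miR-146a-5p was low in the mice exposed for 1 day. Its normalized log2 intensity was 9.20, 8.79 and 8.33 on control replicates 1, 2 and 3, then 8.08, 7.82 and 7.84 on FA 1 day replicates 1, 2 and 4, and 9.18, 8.76 and 9.38 on FA 7 days replicates 1, 2 and 3. The FA 1 day arrays lay together below every other array, while the control and FA 7 days arrays overlapped. Foreground minus background intensity, before normalization, also placed FA 1 day lowest, at 489, 363 and 235.5 in control, 204, 171.5 and 170.5 in FA 1 day, and 732.5, 357 and 463 in FA 7 days.

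miR-146b-5p was high in the mice exposed for 7 days. Its normalized log2 intensity was 9.16, 8.25 and 8.92 on control replicates 1, 2 and 3, then 8.98, 8.63 and 8.74 on FA 1 day replicates 1, 2 and 4, and 9.59, 9.48 and 9.54 on FA 7 days replicates 1, 2 and 3. The FA 7 days arrays lay together above every other array, while the control and FA 1 day arrays overlapped. Foreground minus background also placed FA 7 days highest, at 464.5, 260 and 429.5 in control, 430.5, 326.5 and 367 in FA 1 day, and 1003, 638 and 512 in FA 7 days.

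**Figure D1:**
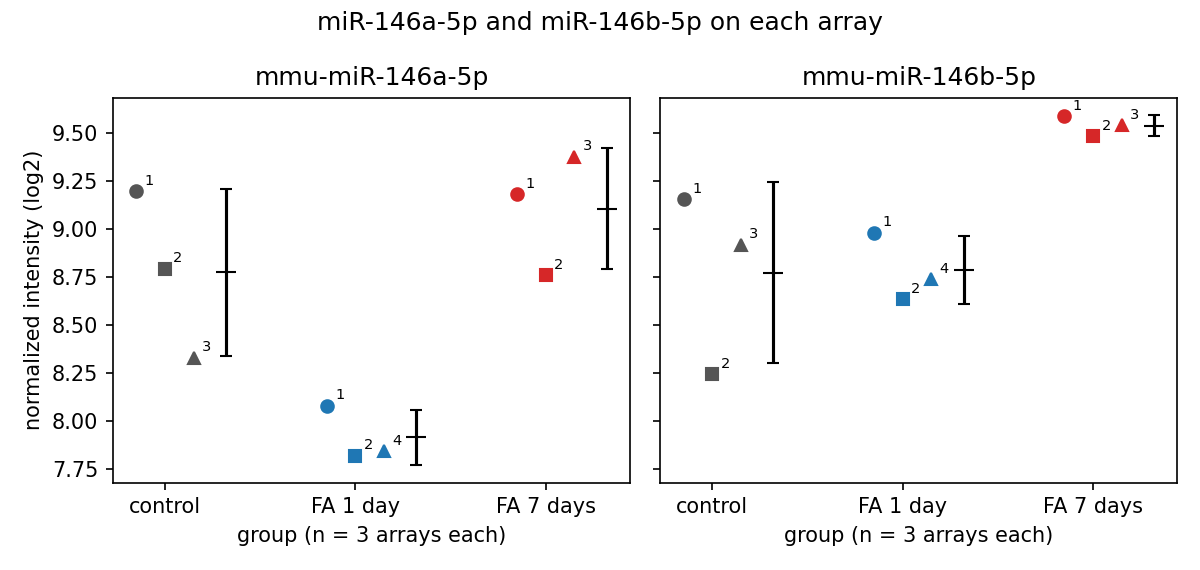
Normalized log2 intensity (vertical axis) of miR-146a-5p (left) and miR-146b-5p (right) on each array, in order of days of exposure. Points are arrays labelled by replicate and bars are mean ± SD (n = 3). FA 1 day lies lowest for miR-146a-5p, with 7.82 to 8.08, and FA 7 days highest for miR-146b-5p, with 9.48 to 9.59.

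The first comparison set mice after 1 day of formaldehyde against control. miR-146a-5p averaged 7.91 ± 0.14 in FA 1 day and 8.77 ± 0.43 in control (SD, n = 3 each), a log2 difference of -0.86 ± 0.26 (SE), which is 1.82-fold lower. All 3 FA 1 day arrays lay below all 3 control arrays, by a gap of 0.25 between the nearest ones. miR-146b-5p averaged 8.79 ± 0.18 in FA 1 day and 8.77 ± 0.47 in control, a difference of 0.01 ± 0.24 (SE), with overlapping groups.

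Among all 462 tested miRNAs the median size of the difference between FA 1 day and control was 0.22. By size, miR-146a-5p ranked 29 and miR-146b-5p 453. Groups that did not overlap with FA 1 day lower were found for 20 of 462 probes (4.33%), miR-146a-5p among them. Adjusted over all 462 probes with limma's moderated test, 0 probes (0%) passed the threshold of 0.05, and 29 had an unadjusted p under 0.05. In RNA from whole bulb, a change in the number of cells that hold a miRNA cannot be told apart from a change in its amount per cell.

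The second comparison set mice after 7 days of formaldehyde against the same control arrays. miR-146b-5p averaged 9.54 ± 0.05 in FA 7 days and 8.77 ± 0.47 in control, a difference of 0.77 ± 0.24 (SE), which is 1.70-fold higher, and the groups were separated by a gap of 0.33. Control replicate 2, an array that stood apart, was the lowest of the group, and without it the difference was 0.50. miR-146a-5p averaged 9.11 ± 0.32 in FA 7 days and 8.77 ± 0.43 in control, a difference of 0.33 ± 0.26 (SE), with overlapping groups.

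That small miR-146a-5p difference depended on single arrays: leaving out FA 7 days replicate 2 gave 0.51 and leaving out FA 7 days replicate 3 gave 0.20, whereas leaving out control replicate 1 gave 0.54 and control replicate 3 gave 0.11. The median size over all tested miRNAs was 0.24, and by size miR-146b-5p ranked 32 and miR-146a-5p 162. FA 7 days lay wholly above control for 41 of 462 probes (8.87%), miR-146b-5p among them and miR-146a-5p not. With limma 0 of 462 probes (0%) passed, and 21 had an unadjusted p under 0.05.

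The third comparison set 7 days of exposure against 1 day, and here both miRNAs were higher. miR-146a-5p averaged 9.11 ± 0.32 in FA 7 days and 7.91 ± 0.14 in FA 1 day, a difference of 1.19 ± 0.26 (SE), or 2.29-fold, with a gap of 0.68 between the groups. miR-146b-5p averaged 9.54 ± 0.05 in FA 7 days and 8.79 ± 0.18 in FA 1 day, a difference of 0.75 ± 0.24 (SE), or 1.69-fold, with a gap of 0.50. By size these ranked 2 and 21 of 462, where the median size was 0.19.

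FA 7 days lay wholly above FA 1 day for 55 of 462 probes (11.9%), both miR-146 5p arms among them. With limma 0 of 462 probes (0%) passed, and 38 had an unadjusted p under 0.05. The 3 comparisons share arrays in pairs, so the high FA 7 days value and the low FA 1 day value of miR-146a-5p each enter more than 1 difference.

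Whether both 5p arms differed alike between groups was read from their difference within each array, since the levels of different probes cannot be set against each other. miR-146b-5p minus miR-146a-5p was -0.04, -0.55 and 0.59 on control replicates 1, 2 and 3, then 0.90, 0.82 and 0.90 on FA 1 day replicates 1, 2 and 4, and 0.41, 0.73 and 0.17 on FA 7 days replicates 1, 2 and 3. The FA 1 day arrays lay above all control and all FA 7 days arrays, by 0.82 against 0.73 at the nearest, while the control and FA 7 days arrays overlapped. The second copy of the array's layout, described with the spots, did not keep this order. Between group means this quantity was 0.87 ± 0.29 (SE) higher in FA 1 day than in control and 0.43 ± 0.29 higher in FA 7 days than in control. The last value became 0.29 with FA 7 days replicate 2 left out, 0.16 with control replicate 2 left out and 0.73 with control replicate 3 left out. Between FA 7 days and FA 1 day the quantity differed by -0.44 ± 0.29. It is built from the same values by which the pair was chosen, so it restates their differences as a description. Its separation between groups was not counted over other probe pairs.

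The spots behind these values were not equally repeatable. The array was printed as 2 copies of 1 layout, blocks 1 to 18 and blocks 19 to 36, with 2 spots of each mouse probe in each copy. Within a copy, the 2 spots of miR-146a-5p (rows 3 and 12 of 1 column) differed by a median of 1.06-fold. Those of miR-146b-5p (rows 2 and 11) differed by 1.10-fold. Between the copies the median was 1.18-fold for miR-146a-5p and 1.21-fold for miR-146b-5p, but 3 arrays for miR-146a-5p and 2 arrays for miR-146b-5p differed by over 1.5-fold.

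**Figure D2:**
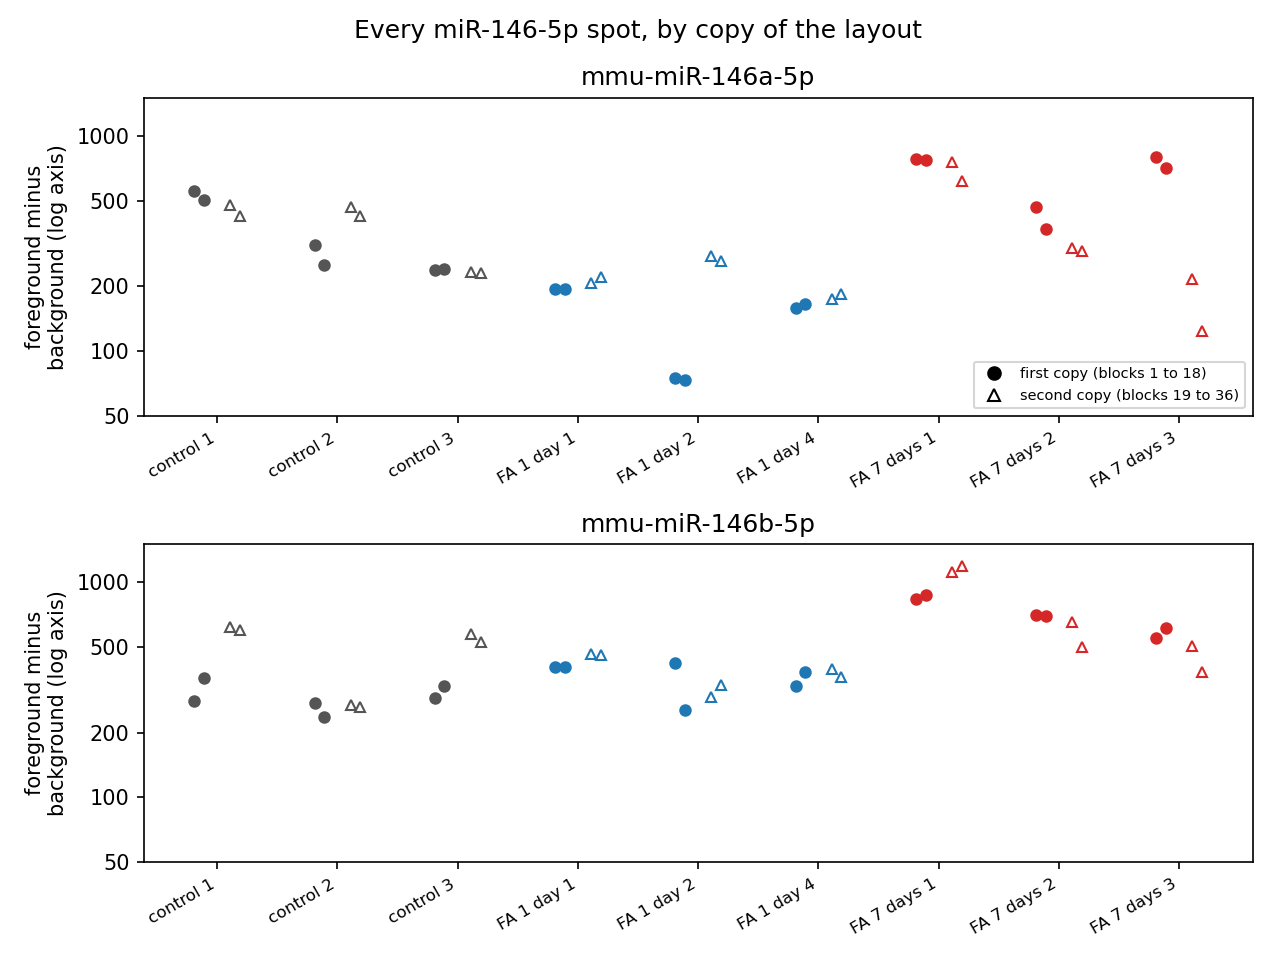
Foreground minus background intensity (vertical, log axis) of every spot of miR-146a-5p (top) and miR-146b-5p (bottom) on each array. Filled circles are the first copy of the layout and open triangles the second. On FA 1 day replicate 2 and FA 7 days replicate 3 the miR-146a-5p copies lie far apart, in opposite directions.

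For miR-146a-5p, in blocks 17 and 35, the widest gaps fell on 1 array of each exposed group. On FA 7 days replicate 3 its spots read 801 and 709 in the first copy and 217 and 124 in the second, a 4.43-fold difference in their means. On FA 1 day replicate 2 they read 75 and 73 in the first copy and 276 and 262 in the second, 3.64-fold in the opposite direction. On control replicate 2 the copies differed by 1.59-fold, with the first copy lower.

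Other miRNA probes in the same blocks moved with it. In blocks 17 and 35 the median first-over-second log2 ratio of 15 other mouse probes was 1.37 on FA 7 days replicate 3, where miR-146a-5p had 2.15. On FA 1 day replicate 2 the median of 22 other probes was -1.13, where miR-146a-5p had -1.86. On both arrays this block pair ranked 1 of 18 for the size of its disagreement. miR-146b-5p, in blocks 4 and 22, differed most on control replicates 1 (1.90-fold) and 3 (1.78-fold), where its block neighbours differed by 1.57-fold and 1.40-fold.

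**Figure D3:**
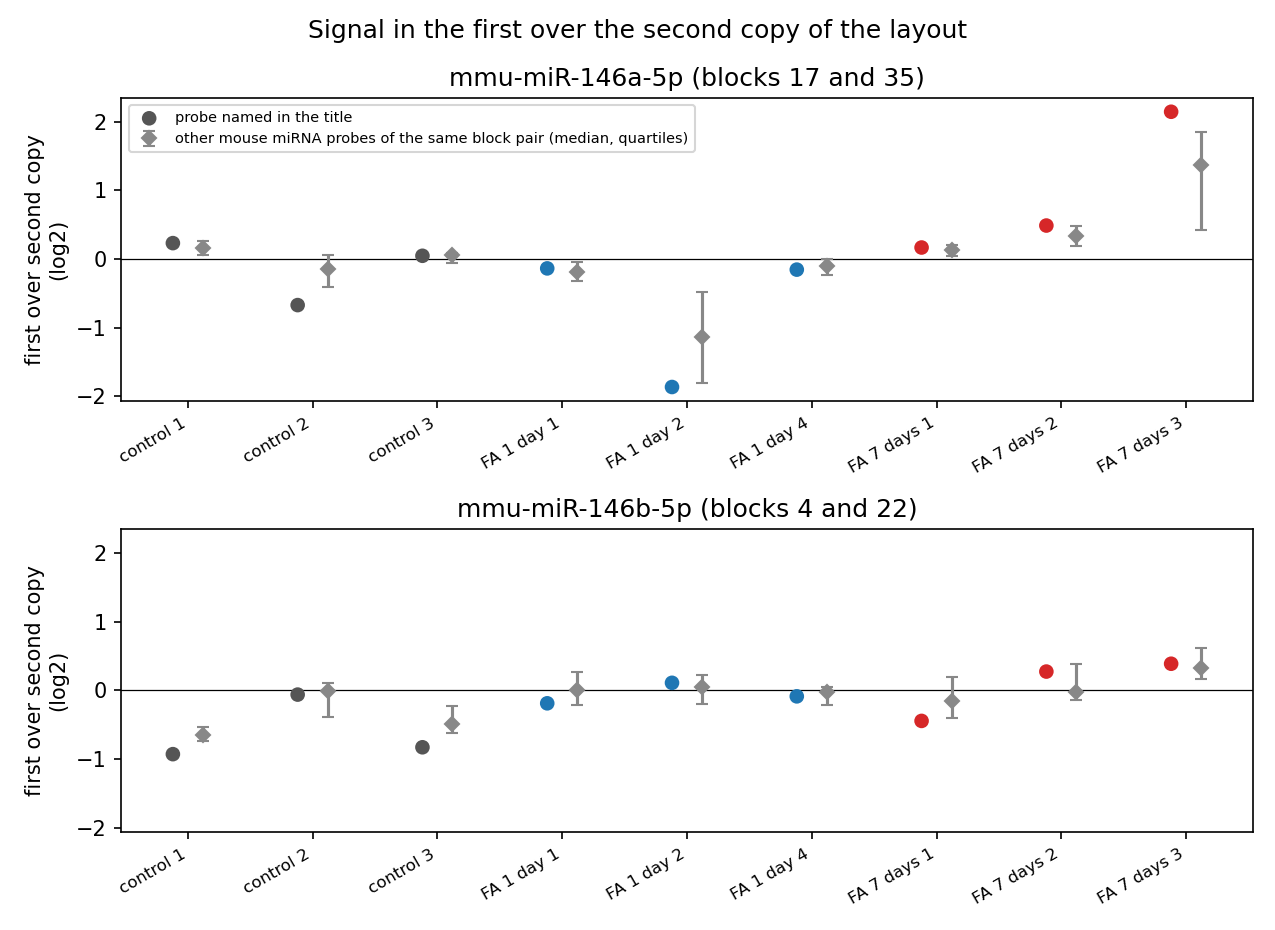
Log2 ratio of the first over the second copy (vertical axis) on each array for miR-146a-5p (top) and miR-146b-5p (bottom), beside the median and quartiles of the other mouse miRNA probes in the same block pair (grey). On FA 7 days replicate 3 and FA 1 day replicate 2 the neighbours of miR-146a-5p lie at 1.37 and -1.13, the same side of 0 as the miRNA.

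Each copy was then taken alone, a choice made after these values were seen. With the first copy, miR-146a-5p differed by -1.08 between FA 1 day and control, by 0.61 between FA 7 days and control and by 1.70 between FA 7 days and FA 1 day. With the second copy, the same differences were -0.70, -0.031 and 0.67. FA 1 day was below control and below FA 7 days without overlap in either copy, but in the second copy the nearest FA 1 day and control arrays read 8.240 and 8.244. The difference of miR-146a-5p between FA 7 days and control did not keep its sign.

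The within-array quantity miR-146b-5p minus miR-146a-5p also depended on the copy. With the second copy it was 0.43, -0.86 and 0.91 on control replicates 1, 2 and 3, then 0.98, 0.22 and 0.90 on FA 1 day replicates 1, 2 and 4, and 0.68, 0.82 and 1.14 on FA 7 days replicates 1, 2 and 3. All 3 groups then overlapped. Between FA 1 day and control it differed by 1.29 ± 0.37 (SE) with the first copy and 0.54 ± 0.43 with the second. Between FA 7 days and FA 1 day it differed by -1.02 with the first copy and 0.18 with the second, and these groups also overlapped with the deposited ratios and with the median over spots. The 0.43 between FA 7 days and control was 0.045 once each block's median shift was removed.

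miR-146b-5p held closer between the copies. FA 7 days was above control by 0.89 with the first copy and 0.69 with the second, and above FA 1 day by 0.68 and 0.85, without overlap in each case. Between FA 1 day and control it was 0.21 with the first copy and -0.16 with the second, with overlapping groups. When each block's median shift was removed from every array, miR-146a-5p differed by -0.82, 0.47 and 1.29 and miR-146b-5p by -0.14, 0.52 and 0.65 in the 3 comparisons, in the same order as above.

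**Figure D4:**
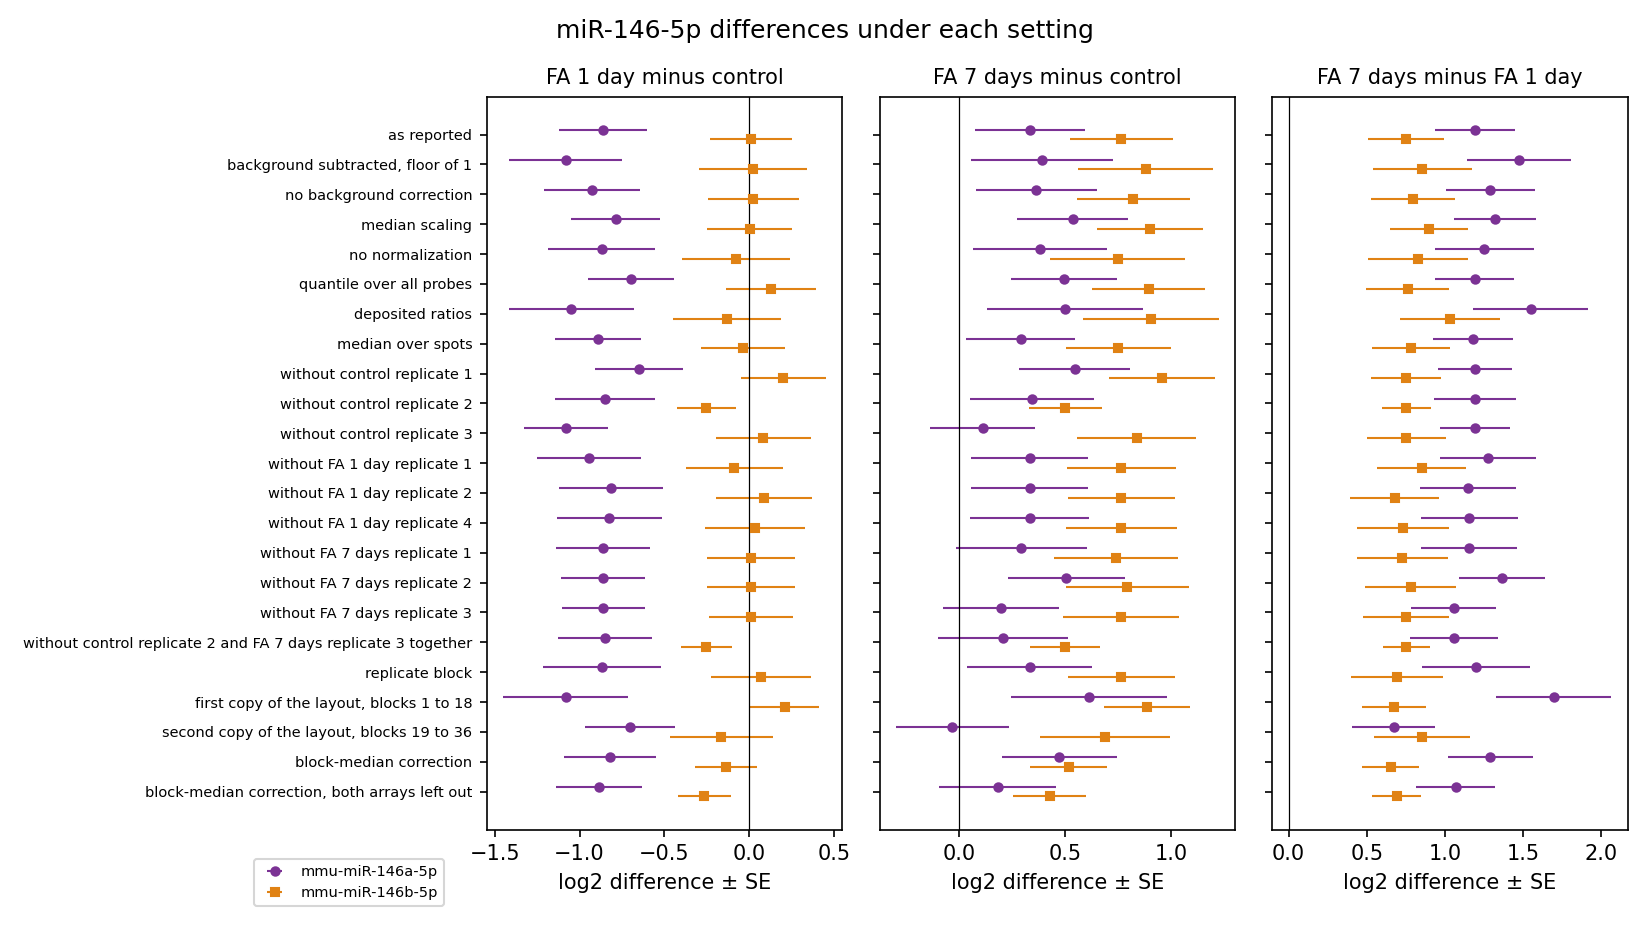
Log2 difference ± SE (horizontal axis) of miR-146a-5p and miR-146b-5p in the 3 comparisons, one line per processing setting. In the FA 7 days minus FA 1 day panel miR-146a-5p runs from 0.67 to 1.70 and miR-146b-5p from 0.65 to 1.03, above 0 in all settings drawn.

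miR-146 belongs to a wider set of miRNAs tied to Toll-like receptor and NF-κB signalling. A list of 24 others was drawn up, 11 listed as induced by that signalling and 13 as acting on its parts, of which 20 were tested (8 and 12). Whether each listed miRNA responds to that signalling in bulb was not tested. miR-155-5p, the best known of the induced ones, was detected on 0 of 9 arrays, as were miR-155-3p, miR-147-3p and miR-10a-5p. With limma 0 of 20 passed in any comparison.

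The median difference over the 20 was 0.12 between FA 1 day and control, 0.06 between FA 7 days and control and 0.19 between FA 7 days and FA 1 day, beside 0.06, 0.06 and -0.00 over all 462. In each comparison 12 of the 20 lay higher and 8 lower. The 8 induced miRNAs had medians of -0.01, 0.08 and 0.19, and the 12 acting on the pathway 0.15, 0.05 and 0.04.

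Several of the values of these signalling miRNAs rest on 1 array, which is named where leaving it out lowered the difference by over 1.5 times or turned its sign.

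Of the induced miRNAs, the largest differences between FA 1 day and control were -0.28 for miR-125a-5p, 0.25 for miR-21-5p and 0.23 for miR-9-5p. All were smaller in size than the -0.86 of miR-146a-5p, which was chosen with its values known. With control replicate 2 left out, miR-21-5p had 0.11 and miR-9-5p had -0.23. Between FA 7 days and control they were 0.61 for miR-9-5p, abundant in neural cells, 0.49 for miR-125b-5p, known to repress the cytokine Tnf, and 0.47 for miR-21-5p, known to repress Pdcd4. With control replicate 2 left out miR-9-5p had 0.15, and with FA 7 days replicate 3 left out miR-125b-5p had 0.13. Between FA 7 days and FA 1 day they were 0.66 for miR-125b-5p, 0.45 for miR-125a-5p and 0.38 for miR-9-5p. With FA 7 days replicate 3 left out, miR-125b-5p had 0.30 and miR-125a-5p had 0.22. None of these passed the test.

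Of the miRNAs acting on the pathway, miR-199a-5p, known in human cells to repress IKBKB, had the largest difference between FA 1 day and control, 1.20, opposite in sign to miR-146a-5p. It was followed by 0.74 for miR-223-3p, a neutrophil miRNA, and 0.55 for miR-301a-3p, known in human cells to repress NKRF. miR-223-3p read 10.14 on FA 1 day replicate 2 and 7.50 to 7.99 on the other FA 1 day arrays, against 7.72 to 7.91 in control, and without replicate 2 its difference was -0.064. miR-301a-3p had 0.24 with control replicate 2 left out. Between FA 7 days and control the largest were 0.88 for miR-149-5p, known to repress Myd88, 0.86 for miR-181b-5p and 0.47 for miR-145-5p. With control replicate 2 left out, miR-149-5p had 0.46 and miR-181b-5p had 0.19, and with FA 7 days replicate 2 left out miR-145-5p had 0.24. Between FA 7 days and FA 1 day they were -1.07 for miR-199a-5p, -0.88 for miR-223-3p and -0.75 for miR-23b-3p, which is known to repress Tab2 and Tab3. With FA 1 day replicate 2 left out miR-223-3p had -0.080, and with FA 7 days replicate 3 left out miR-23b-3p had -0.45. None of these passed the test either.

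**Figure D5:**
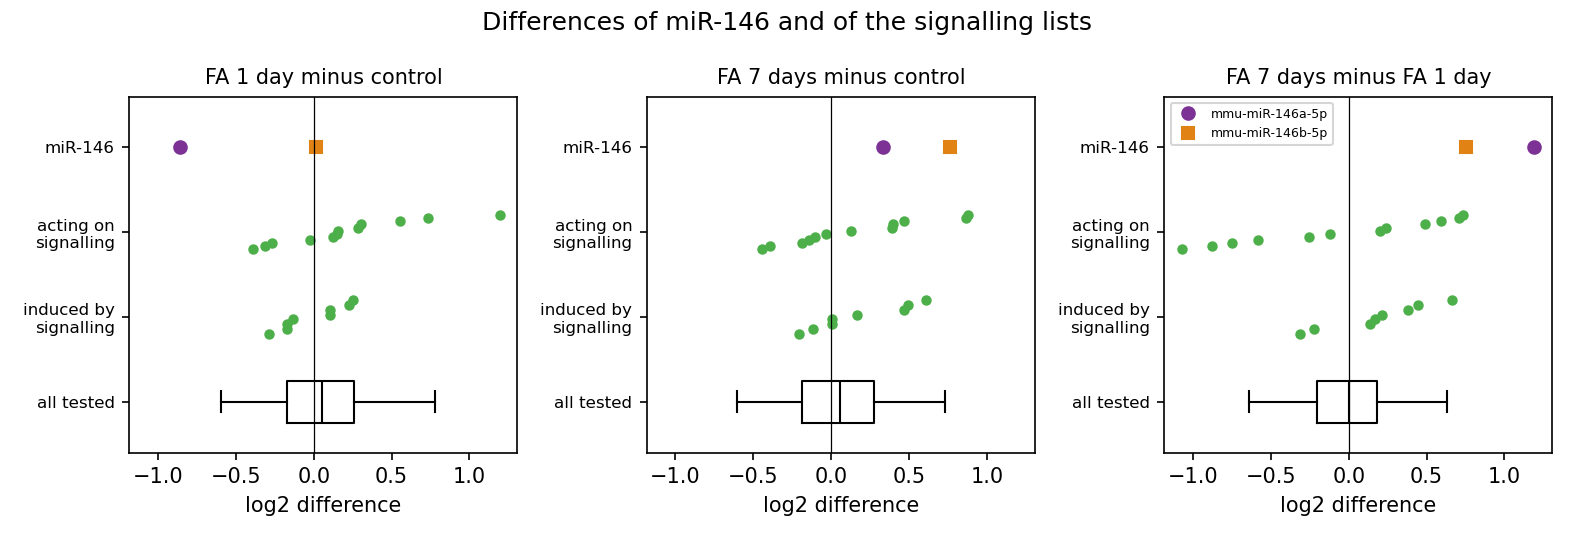
Log2 differences (horizontal axis) of miR-146a-5p and miR-146b-5p, of the tested miRNAs acting on or induced by the signalling (1 point each), and of all 462 tested miRNAs (box, quartiles and median, with whiskers at the 5th and 95th percentiles), in the 3 comparisons. miR-146a-5p lies left of all listed miRNAs in FA 1 day minus control, at -0.86, and right of them in FA 7 days minus FA 1 day, at 1.19. The miR-146 pair was chosen with these differences known, so its place is no test.

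Blood cells hold miR-146a too, so their marker miRNAs were read beside it. All 4 leukocyte markers (miR-142-5p, miR-142-3p, miR-223-3p and miR-150-5p) were detected on 9 of 9 arrays and none was at 0. Their summed normalized intensity ran from 936 to 1592 in control, from 1127 to 3102 in FA 1 day, with the maximum on replicate 2, and from 1415 to 1871 in FA 7 days. miR-142-3p was 1.22 higher in FA 1 day than in control and 1.32 higher in FA 7 days than in control on the log2 scale, or 0.34 and 0.44 with control replicate 2 left out, with overlapping groups. miR-142-5p was 0.42 higher in FA 1 day than in control (0.036 with FA 1 day replicate 2 and 0.11 with control replicate 2 left out) with overlap, and 0.91 higher in FA 7 days than in control without overlap (0.60 with control replicate 2 left out). miR-223-3p is given above, and miR-150-5p differed by -0.26 between FA 1 day and control and by -0.23 between FA 7 days and control, also with overlap.

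The 4 red cell markers summed to 5356 to 8021 in control, 5917 to 9120 in FA 1 day and 5125 to 5819 in FA 7 days, with miR-144-5p detected on 5 arrays. miR-451a made up 52.1% to 82.4% of that sum, and without it the other 3 summed to 941 to 2355 in control, 1662 to 4369 in FA 1 day and 1209 to 1639 in FA 7 days. Between FA 1 day and control, where miR-146a-5p was lower, miR-144-5p was 0.86 higher and miR-486-5p, whose probe also names miR-3107-5p, 0.44 higher, both without overlap, miR-144-3p was 0.93 higher with overlap (0.47 with FA 1 day replicate 2 and 0.43 with control replicate 1 left out), and miR-451a differed by -0.14. miR-144-5p read 6.15 to 6.48 on the control arrays, within the 6.13 to 6.62 of miR-155-5p, detected on 0 arrays. Its 0.86 is thus counted from the floor. The filter needed detection in only 1 group, which favours such a difference. Groups that did not overlap in either direction were found for 69 of 462 probes in that comparison. No marker passed limma's test in any comparison.

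Of the summed bulb markers 51.7% to 64.1% was miR-124-3p, the brightest probe, which quantile normalization set to the same value on all 9 arrays. The other 5 summed to 18602 to 28799 in control, 26163 to 27069 in FA 1 day and 29223 to 30934 in FA 7 days. The 18602 was control replicate 2, which stood apart, while the other control arrays had 27293 and 28799. Between FA 1 day and control, miR-200b-3p, miR-128-3p and miR-9-5p differed by 0.60, 0.25 and 0.23, miR-429-3p by -0.23 and miR-7a-5p by -0.39. Only miR-7a-5p did so without overlap. With control replicate 2 left out the 5 differences became, in that order, 0.25, -0.25, -0.23, -0.065 and -0.37. Between FA 7 days and control, miR-128-3p, miR-9-5p and miR-200b-3p differed by 0.68, 0.61 and 0.43, miR-7a-5p by -0.14 and miR-429-3p by -0.11. There only miR-9-5p did so without overlap. Without control replicate 2 these became, in that order, 0.18, 0.15, 0.074, -0.12 and 0.061. The part of blood cells and of bulb cells in the miR-146 differences was not tested.

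The probes most like each 5p arm were sought among all tested miRNAs by the root mean square difference between profiles over the 9 arrays, each centred on its own mean. Nearest to miR-146a-5p were miR-1949 (0.35), let-7i-5p (0.36), miR-222-3p (0.36), miR-705 (0.39) and miR-125b-5p (0.39), where miR-146a-5p itself varied by 0.57 about its mean. Nearest to miR-146b-5p were miR-7b-5p (0.18), miR-497-5p (0.19), miR-3096-3p (0.20), miR-383-5p (0.21) and miR-1949 (0.22), where miR-146b-5p varied by 0.43. The 5p arms lay 0.47 from each other, which ranked miR-146b-5p 32 from miR-146a-5p and miR-146a-5p 161 from miR-146b-5p. None of the nearest probes shared a block with its miRNA, and all share the same 9 arrays and their normalization. Other blocks shifted between copies too. For the blocks of the probes nearest to miR-146a-5p, in the order named, the median first-over-second log2 ratios on FA 1 day replicate 2 were -0.25, -0.51, -1.11, -0.47 and 0.033. On FA 7 days replicate 3 they were 0.35, 0.73, 0.41, 0.91 and 0.24. How far such shifts enter the likeness was not tested.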

How the data were processed

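Total RNA was labelled with the dye Hy3 and hybridised to Exiqon miRCURY arrays, per the labels' protocols. The authors deposited foreground and foreground minus background intensity for 12312 spots per array, per the file headers. For the scanner and its software, the sources used here give no name. They also deposited a table of ratios. Recomputing each listed ratio as a probe's median foreground minus background over 1 factor per array matched 100% of them within 1%, so the scale is linear. Column medians ran from 0.0196 to 0.160.

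From the intensity, spots were background-corrected by normexp in limma 3.58.1 (offset 50, R 4.3.3). The mean of a probe's 4 spots was quantile normalized between arrays over 1084 miRNA probes, then taken to log2. This hides any shift shared by most miRNAs. Tested were the 462 mouse probes detected (foreground minus background of at least 30) on every array of at least 1 group. A group-means model (lmFit, eBayes) over all 9 arrays gave differences, SE and two-sided p-values with Benjamini-Hochberg adjustment. The number of arrays limits the precision, and p-values measure only the spread between these samples. No slide or scan batch is named in the labels. The steps were tested on simulated data. The changes added there were larger than any miR-146 difference, so this does not show whether changes of the size seen here would pass.

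Alternatives changed the background correction, normalization, spot summary, filter, replicate block and arrays included; single copies of the layout, a block-median correction, and marker and list values with single arrays or the brightest member left out were added after the data were seen. The miRNAs and lists were chosen with earlier results of these data known. Named were all miR-146 arms, the 3 members of each signalling list with the largest difference per comparison, and the 5 nearest profiles. Marker lists share miR-223-3p and miR-9-5p with the signalling lists. Probe names follow the array's design.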

Additional observations from a re-analysis of the deposited data

How the results depend on the processing

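Apart from leaving out single arrays, 13 alternatives reprocessed the same arrays, some of them without both arrays that stood apart. In 13 of 13, miR-146a-5p stayed lower in FA 1 day than in control and higher in FA 7 days than in FA 1 day. In all of them miR-146b-5p stayed higher in FA 7 days than in control and in FA 1 day. None of these groups overlapped, but miR-146a-5p on the nearest FA 1 day and control arrays read 8.240 and 8.244 with the second copy. With single arrays left out these 4 differences ran from -1.08 to -0.65, 1.06 to 1.37, 0.50 to 0.96 and 0.68 to 0.85. miR-146a-5p between FA 7 days and FA 1 day moved to 1.55 with the deposited ratios, 1.70 with the first copy and 0.67 with the second. miR-146b-5p between FA 7 days and control moved to 0.43 with the block-median correction and both arrays that stood apart left out. miR-146a-5p between FA 7 days and control ran from 0.11 to 0.54 with single arrays left out and was -0.031 with the second copy.

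miR-146b-5p between FA 1 day and control had no stable sign: -0.079 without normalization, -0.13 with the deposited ratios, -0.034 with the median over spots, -0.25 without both arrays that stood apart, -0.16 with the second copy, -0.14 with the block-median correction, -0.26 with that correction and both arrays left out, and -0.25 to 0.20 with single arrays left out. The within-array quantity miR-146b-5p minus miR-146a-5p differed by -0.44 between FA 7 days and FA 1 day, and by 0.18 with the second copy, where its groups overlapped. The causes of these changes were not tested.

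The counts of probes past the threshold were 0 in all alternatives except without control replicate 3, so that they ran from 0 to 1 between FA 1 day and control and between FA 7 days and control. That probe was miR-3104-3p (limma's adjusted p = 0.0248 and 0.0335). Counts without overlap in either direction, of 462 tested probes, were 69 (FA 1 day and control), 49 (FA 7 days and control) and 93 (FA 7 days and FA 1 day). Over alternatives they ran from 49 to 174, 32 to 205 and 48 to 211. These ranges mix unlike sets, since the filter alternatives counted over 1027 and 351 probes. Groups with arrays left out also separate more easily. With the replicate number as a block, miR-146a-5p differed by -0.87, 0.33 and 1.20 and miR-146b-5p by 0.07, 0.77 and 0.69 in the 3 comparisons, and 0 probes passed. Same-numbered arrays correlated from -0.58 to 0.33 in their deviations from the group means. With few arrays per group and no differently numbered pairs beside them, these values cannot tell whether same-numbered arrays share a batch.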

Other observations

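The disagreement between the copies of the layout was not limited to the blocks that hold miR-146. The share of mouse probes measured in both copies whose copies differed by over 1 on the log2 scale was 20.9% on FA 1 day replicate 2, 17.3% on FA 7 days replicate 3 and 11.2% on FA 7 days replicate 1, against 0% on FA 1 day replicate 4. Of 18 block pairs, the median shift exceeded 1 (log2) in 3 on FA 7 days replicate 1 and in 2 each on FA 1 day replicate 2 and FA 7 days replicate 3, and in 0 on the other 6 arrays.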
